A study of Mus musculus with 22 samples.

Results

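The genes of prohormone processing and the granins were examined in the mouse hypothalamus after paternal loss of Snord116 and after sleep deprivation. The 10 genes, Pcsk1, Pcsk2, Cpe, Pam, Chga, Chgb, Scg2, Scg3, Scg5 and Vgf, were taken by their symbols from the 41456 gene identifiers of the count table, each symbol standing on 1 identifier. All mice were C57BL/6J. Mutant mice (PWScrm+/p−) lack the Snord116 small nucleolar RNA genes on the paternal chromosome by a germline deletion, and control mice (PWScrm+/p+) carry them. Hypothalamus was taken at ZT6, 6 h into the light period, after 6 h of sleep deprivation (called SD here), at ZT6 without it, and at ZT0, when the lights come on. The labels give neither sex nor age.

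Of 22 libraries, 17 were used. They are 4 mutant SD, 2 mutant ZT6, 4 control SD, 4 control ZT6 and 3 control ZT0 libraries, numbered as replicates in the order of deposit. No mutant ZT0 library was among them, so the genotypes could not be compared at ZT0. The 5 libraries left out carry mutant labels. One of them holds 7348 counts, and in the other 4 a list of 9 neuronal genes such as Snap25 summed to 3.45 to 23.5 CPM (counts per 1000000 counts of the library), against 2584 to 4106 CPM in the 17 libraries. The 10 genes together summed to 452.8 to 789.8 CPM in those 4 libraries and to 4243 to 7934 CPM in the 17, and in those 4 Scg3 had 0 counts, which allows up to 3 counts or 0.0933 to 0.961 CPM (counting error only).

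The 17 libraries held 14609454 to 46965594 counts each, and the lowest count of any of the 10 genes in any of them was 1021, so counting error was small beside the spread between libraries. All hypothalamic markers on the list, Nkx2-1, Sim1, Otp, Pmch, Hcrt, Avp, Oxt and Agrp, were present in each of the 17. Lines with a Snord116 symbol had counts in 0 of 6 mutant libraries and in 8 of 11 control libraries. The controls without any were control ZT0 replicate 3, control SD replicate 4 and control ZT6 replicate 4. Snhg14, the transcript that hosts Snord116, was measured in all 17. In libraries numbered 1 to 18 in their titles it was at 253.4 to 372.3 CPM in mutants and 393 to 2040 CPM in controls, with no overlap, and control ZT0 replicate 3 had 426.3 CPM. In libraries numbered 43 to 46 it was at 198.5 and 201.7 CPM in the mutants and at 174 and 231.3 CPM in control SD replicate 4 and control ZT6 replicate 4. These 2 libraries are labelled control but lie with the mutants at the locus, in Snord116 counts and in Snhg14. Whether the set or the genotype goes with this cannot be told apart. They are called by their labels here, and the genotype values that follow in most detail are also given without them. Hormone genes of the pituitary, 9 markers with Gh and Prl among them, were high in 3 libraries. They made up 23340 CPM of mutant SD replicate 1, 1109 CPM of mutant SD replicate 4 and 705.9 CPM of control ZT6 replicate 1, and 1.675 to 33.21 CPM of the other 14. The number in the title runs from 1 to 18 in 13 of the 17 libraries and from 43 to 46 in 4 (mutant SD, mutant ZT6, control SD and control ZT6, replicate 4 of each). The labels do not say what the number stands for. The numbers 1 to 18 are further split here into 1 to 4 and 5 to 18, as an earlier analysis of these data did.

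Peptide hormones and neuropeptides are made as long precursors that are cut and trimmed inside dense core granules on the way to secretion. The convertases PC1/3 (Pcsk1) and PC2 (Pcsk2) cut after pairs of basic residues, carboxypeptidase E (Cpe) removes those residues from the new ends, and peptidylglycine alpha-amidating monooxygenase (Pam) turns a terminal glycine into an amide. PC2 needs the chaperone 7B2 (Scg5) to become active. Chromogranin A (Chga), chromogranin B (Chgb), secretogranin II (Scg2) and secretogranin III (Scg3) are acidic proteins that help pack the granule, and Vgf is both a granin-like granule protein and a precursor of signalling peptides. In the hypothalamus this machinery serves neurons that control feeding, growth and sleep. Loss of PC1 causes obesity and low pituitary hormones in people, and PC1 is discussed in Prader-Willi syndrome, to which the Snord116 locus belongs.

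Promoters are shown for the 3 genes that hold a full cyclic AMP response element and for Chga, which holds its first 5 letters, because 3 of these 4 are granins that stood high together in 1 set of libraries described further on. Chga was thus chosen by that result. Pcsk2, Scg3 and Scg5 hold the same 5 letters on either strand. Neither they nor Pcsk1 passed the test for that set, and Vgf, which did, has no promoter entry. A link between the element and that set was not tested. The sequences come from RefSeq promoters on GRCm38.p6, which had an entry for 8 of the 10 genes, all but Cpe and Vgf. Each is 30 bases on the gene's own strand, and capitals mark the letters found. Positions are counted from the transcription start of the RefSeq entry, which can differ from the GENCODE gene spans given further on. By those spans the Scg2 and Chgb stretches lie inside the gene, after its first base. The element starts 68 bases before the RefSeq start of Scg2 (chr1:79440076-79440105, minus strand), 72 bases before that of Chgb (chr2:132781559-132781588, plus strand), 78 bases before that of Pcsk1 (chr13:75089768-75089797, plus strand), and the 5 letters 44 bases before that of Chga (chr12:102554886-102554915, plus strand).
Scg2: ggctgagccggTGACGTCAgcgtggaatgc
Chgb: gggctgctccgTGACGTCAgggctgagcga
Pcsk1: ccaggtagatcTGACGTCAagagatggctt
Chga: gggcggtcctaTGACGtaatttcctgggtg

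The letters TGACGTCA were searched on both strands of the 250 bases before each start. They were found in 3 of the 8 promoters (Pcsk1, Chgb and Scg2), and in 1.55% of all 32851 promoters in the table. The shorter site TGACG, which lies within the full element, was in 7 of the 8, all but Pam, and in 17.8% of all promoters. The E-box CANNTG, the letters bound by helix-loop-helix factors such as Nhlh2, was in 6 of the 8, all but Pcsk1 and Scg3, and in 66.2% of all promoters. These matches describe letters only.

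Levels between the genes were compared per length, as mean CPM over the 17 libraries per kilobase of coding sequence (GENCODE M21, GRCm38). CPM values of single genes here and in what follows are scaled by TMM factors, which correct for differences in library composition, while sums over lists are not scaled. Cpe stood highest at 1489 CPM per kilobase, followed by Scg2 at 840.1, Scg5 at 478.3 and Chgb at 291.6. Chga was at 274.3, Pam at 156.6, Vgf at 132.2 and Pcsk2 at 119.5. Scg3, at 66.32, and Pcsk1, at 38.87, were the lowest. The order was the same per kilobase of whole transcript. PC2 transcripts thus stood above PC1 transcripts in this tissue, and the enzyme that trims the ends stood far above the convertases. In whole tissue, fewer cells of a kind and less RNA per cell cannot be told apart.

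**Figure D1:**
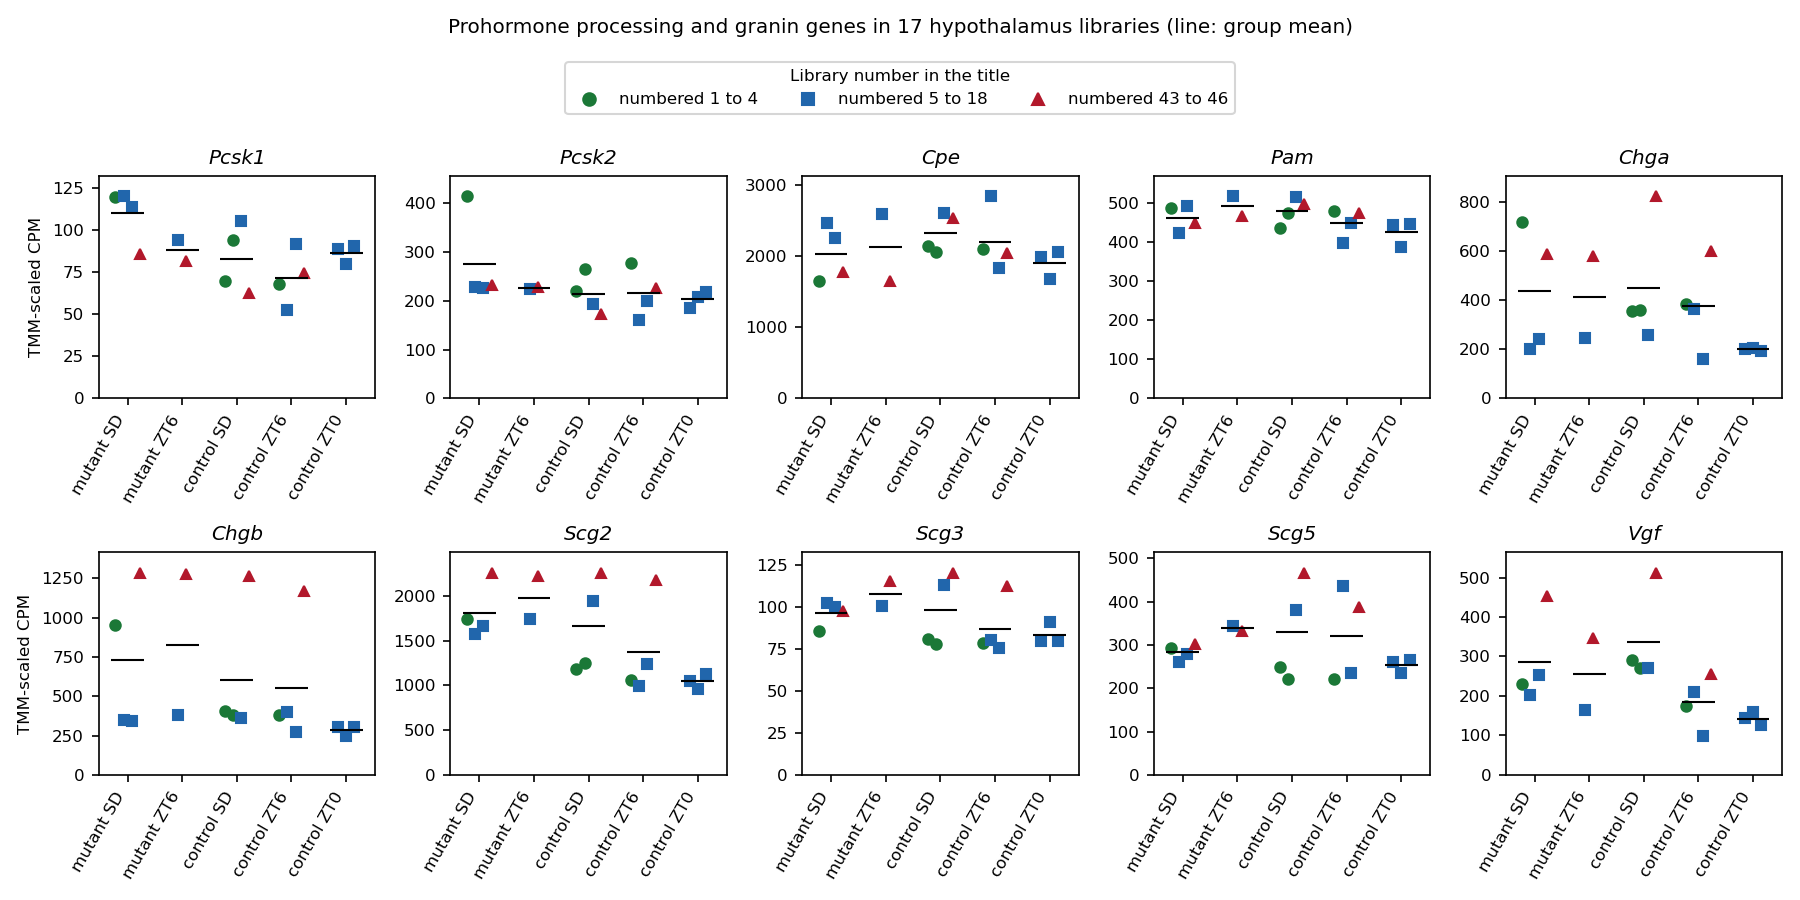
TMM-scaled CPM (vertical axis, from 0) of the 10 genes in each of the 17 libraries, by group, with a line at the group mean and a symbol for the library number in the title. Chgb in the 4 libraries numbered 43 to 46 lies between 1169 and 1285 CPM, above the 13 others.

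No gene of the 10 passed the test in any of the 7 comparisons of sleep, genotype and time, and no gene of the 21346 tested did. The test was edgeR's quasi-likelihood test with Benjamini-Hochberg adjustment at an adjusted p under 0.05, so the share called was 0.0% in each comparison. At an unadjusted p under 0.05 it gave 6.17% of all genes for SD in controls, 2.16% for SD in mutants, 2.65% for genotype at ZT6, 2.96% for genotype after SD, 3.6% for genotype over both states, 3.25% for time in controls and 2.48% for the interaction of genotype with SD. Of the 10, Vgf was under it for SD in controls and Pcsk1 for genotype over both states, and none was in the 5 other comparisons. With the sets of library numbers as a covariate, 2 of the 10 (Vgf and Scg2) were under it for SD in controls, where 9.14% of all genes were. In that fit 2 of the 10 (Pcsk1 and Pcsk2) were under it for genotype after SD (9.18% of all genes) and for genotype over both states (7.97%), 1 (Cpe) for time in controls (7.64%), and 0 in the 3 others. DESeq2 called 1 to 23 genes in each comparison and none of the 10. Groups without overlap were counted too. Of the 10, 1 (Vgf) was higher and 0 lower for SD in controls, against 0.829% and 0.993% of all genes. For SD in mutants 0 were higher and 1 (Scg5) lower, against 4.6% and 5.08%. There were 0 in either direction for genotype at ZT6 (2.41% and 3.64% of all genes), for genotype after SD (0.876% and 2.14%) and for time in controls (1.95% and 2.45%). The group means of each gene, put in order, had no neighbours further apart than the sum of their standard deviations. All values that follow are therefore levels and differences that did not pass, except those between library numbers.

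Pcsk1 (ENSMUSG00000021587, chromosome 13, 75089826 to 75134861, plus strand) had 119.8, 120.1, 113.6 and 85.93 CPM in mutant SD, 94.16 and 81.79 CPM in mutant ZT6, 69.63, 94.08, 105.3 and 62.69 CPM in control SD, 67.73, 52.72, 91.82 and 74.6 CPM in control ZT6, and 88.78, 79.65 and 90.37 CPM in control ZT0. Its 3 highest libraries were all mutant SD, but the 4th mutant SD library lay inside the control range, and the groups overlapped. Mutant SD averaged 109.9 ± 16.23 CPM and control SD 82.92 ± 20.08 CPM (standard deviation, n = 4 each). The difference was 0.41 ± 0.193 on the log2 scale (mutant over control, ± SE, edgeR adjusted p = 0.999). At ZT6 mutants averaged 87.97 ± 8.75 CPM (n = 2) and controls 71.72 ± 16.22 CPM (n = 4), a log2 difference of 0.30 ± 0.233. Over both states the difference was 0.35 ± 0.151 (edgeR adjusted p = 0.942).

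Within sets of like-numbered libraries the Pcsk1 difference after SD kept its sign. It was 0.57 among libraries 1 to 4 (1 mutant, 2 control), 0.15 among libraries 5 to 18 (2 mutant, 1 control) and 0.45 among libraries 43 to 46 (1 of each label), as differences of mean log2 CPM. Of all genes, 16.6% were above 0 in all 3 sets. At ZT6 it was 0.44 and 0.13 in the 2 sets with both genotypes. With the sets as a covariate the difference after SD was 0.39 ± 0.174 (edgeR adjusted p = 0.534), and without the 3 libraries with pituitary transcripts it was 0.54 ± 0.248. Both mutant SD libraries left in that fit are numbered 5 to 18, while a control SD library numbered 43 to 46 stays, so genotype and library number are mixed in this value and in those of the other genes without these 3 libraries. Without the 2 libraries labelled control whose locus is like the mutants it was 0.31 ± 0.213, and without all libraries numbered 43 to 46 it was 0.43 ± 0.229. Leaving out only these 2 controls keeps the mutant libraries numbered 43 to 46. Genotype and library number are thus mixed in the first of these values, and in the like genotype values of the other genes.

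Pcsk2 (ENSMUSG00000027419, chromosome 2, 143546156 to 143816285, plus strand) had 414.5, 227.9, 225.5 and 232.8 CPM in mutant SD, 225.1 and 228.7 CPM in mutant ZT6, 220.6, 265, 193.4 and 172.9 CPM in control SD, 277.5, 161.2, 199.3 and 225.3 CPM in control ZT6, and 186.2, 207.1 and 218.2 CPM in control ZT0. Mutant SD replicate 1 stood far above the rest, and the 5 other mutant libraries lay close together within the control range. The log2 difference after SD was 0.37 ± 0.218 (mutant over control, edgeR adjusted p = 0.999). It was 0.78, 0.23 and 0.43 within the 3 sets, and 0.49 ± 0.128 with the sets as a covariate (edgeR adjusted p = 0.534). Mutant SD replicate 1 is the library with 23340 CPM of pituitary transcripts. Without it the difference was 0.13, and without all 3 such libraries 0.14 ± 0.196. Without the 2 libraries labelled control whose locus is like the mutants it was 0.30 ± 0.231. The part of pituitary tissue in the Pcsk2 value was not tested.

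Cpe (ENSMUSG00000037852, chromosome 8, 64592542 to 64693054, minus strand) had 1653, 2454, 2244 and 1766 CPM in mutant SD, 2583 and 1653 CPM in mutant ZT6, 2134, 2049, 2595 and 2527 CPM in control SD, 2096, 2836, 1825 and 2042 CPM in control ZT6, and 1978, 1679 and 2048 CPM in control ZT0. The groups overlapped throughout. The log2 difference after SD was -0.20 ± 0.202 (mutant over control), below 0 in all 3 sets, as were 20.6% of all genes. Without the 3 libraries with pituitary transcripts it was 0.07 ± 0.252, with the other sign.

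Pam was the steadiest of the 10, at 385.7 to 516.4 CPM over the 17 libraries. It averaged 461.8 ± 33.24 CPM in mutant SD (n = 4), 490.7 ± 36.27 in mutant ZT6 (n = 2), 479.9 ± 33.29 in control SD (n = 4), 449.1 ± 37.92 in control ZT6 (n = 4) and 424.2 ± 33.34 in control ZT0 (n = 3). None of its log2 differences in the 7 comparisons was larger than its SE. It differed by 0.00 ± 0.101 on the log2 scale between libraries numbered 43 to 46 and the rest.

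Scg5, the PC2 chaperone, had 293.6, 260.2, 278.8 and 301.4 CPM in mutant SD, 344.6 and 333.3 CPM in mutant ZT6, 249, 221.4, 381 and 467.1 CPM in control SD, 221.3, 436.4, 235.4 and 386.8 CPM in control ZT6, and 260.2, 234.2 and 266 CPM in control ZT0. In mutants all 4 SD libraries lay under both ZT6 libraries. The log2 difference between mutant SD and mutant ZT6 was -0.26 ± 0.298 (edgeR adjusted p = 1). In controls the SD and ZT6 libraries overlapped, with a difference of 0.04 ± 0.246.

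Among the granins, Scg2 (ENSMUSG00000050711, chromosome 1, 79434669 to 79440120, minus strand) had 1738, 1578, 1667 and 2258 CPM in mutant SD, 1737 and 2223 CPM in mutant ZT6, 1181, 1250, 1944 and 2257 CPM in control SD, 1062, 994.6, 1241 and 2172 CPM in control ZT6, and 1044, 960.9 and 1132 CPM in control ZT0. Every mutant library was above every control ZT0 library, and the highest library of each group that has one was numbered 43 to 46. At ZT6 the log2 difference of mutants over controls was 0.53 ± 0.319 (edgeR adjusted p = 0.999) and with the sets as a covariate 0.39 ± 0.194. Within sets it was 0.65 among libraries 5 to 18 and 0.03 among libraries 43 to 46. Without the 2 libraries labelled control whose locus is like the mutants the ZT6 difference was 0.86 ± 0.253 (edgeR adjusted p = 0.701), and without all libraries numbered 43 to 46 it was 0.71 ± 0.304, with 1 mutant ZT6 library left. In controls SD over ZT6 was 0.28 ± 0.266, with differences of 0.19, 0.81 and 0.06 within the 3 sets.

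Chga (ENSMUSG00000021194, chromosome 12, 102554969 to 102565028, plus strand) had 718.1, 202.9, 241.5 and 585.9 CPM in mutant SD, 244.8 and 580.1 CPM in mutant ZT6, 355.2, 358.8, 256.8 and 823 CPM in control SD, 384.9, 361.8, 159.9 and 599.6 CPM in control ZT6, and 201.9, 206.9 and 194.2 CPM in control ZT0. Within each group from mutant SD to control ZT6 the levels spread more than 2-fold, and the groups overlapped. The log2 difference of mutants over controls after SD was -0.04 ± 0.467, and it was 1.01, -0.21 and -0.49 within the 3 sets, so the libraries numbered 1 to 4, where the mutant is the one with most pituitary transcripts, went the other way. With the sets as a covariate it was 0.15 ± 0.259. Without the 3 libraries with pituitary transcripts it was -0.96 ± 0.527, and -0.36 ± 0.321 with the sets as a covariate in that fit. Without the 2 libraries labelled control whose locus is like the mutants it was 0.45 ± 0.422, in a fit that keeps mutant SD replicate 4. Without all libraries numbered 43 to 46 the difference was 0.29 ± 0.419.

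Chgb (ENSMUSG00000027350, chromosome 2, 132781278 to 132795079, plus strand) had 952.4, 347.8, 345.3 and 1285 CPM in mutant SD, 380.2 and 1276 CPM in mutant ZT6, 404, 382.2, 360.6 and 1261 CPM in control SD, 378.4, 396.9, 272.8 and 1169 CPM in control ZT6, and 302.6, 249.4 and 304.6 CPM in control ZT0. Leaving out the libraries numbered 43 to 46 and mutant SD replicate 1, the 12 others all lay within 249.4 to 404 CPM. The genotype difference after SD was 0.28 ± 0.567 on the log2 scale (mutant over control) and 0.45 ± 0.218 with the sets as a covariate. Within the 3 sets it was 1.28, -0.06 and 0.03. Without the 3 libraries with pituitary transcripts it was -0.74 ± 0.651, and -0.05 ± 0.207 with the sets as a covariate in that fit. Without the 2 libraries labelled control whose locus is like the mutants it was 0.95 ± 0.446. That fit keeps mutant SD replicate 4, at 1285 CPM, so genotype and library number are mixed in it. Without all libraries numbered 43 to 46 the difference was 0.55 ± 0.326. Scg3 was lower and steadier, at 86.02 to 102.6 CPM in mutant SD, 100.6 and 115.3 CPM in mutant ZT6, 78.16 to 120.5 CPM in control SD, 75.42 to 112.8 CPM in control ZT6 and 79.58 to 91.09 CPM in control ZT0.

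Vgf (ENSMUSG00000037428, chromosome 5, 137026392 to 137033351, plus strand) had 231, 201.8, 254 and 453.4 CPM in mutant SD, 164.7 and 345.8 CPM in mutant ZT6, 290.9, 271.8, 270.5 and 512.2 CPM in control SD, 174.2, 209.9, 97.86 and 254.6 CPM in control ZT6, and 143.2, 158.9 and 125.8 CPM in control ZT0. In controls every SD library was above every ZT6 library. Control SD averaged 336.3 ± 117.6 CPM and control ZT6 184.1 ± 66.26 CPM (standard deviation, n = 4 each). The log2 difference was 0.87 ± 0.332 (SD over ZT6, edgeR adjusted p = 0.719), and so did not pass over all genes. With the sets as a covariate it was 0.82 ± 0.189 (edgeR adjusted p = 0.379), and within the 3 sets it was 0.69, 0.92 and 1.01. Of all genes, 15.3% were above 0 in all 3 sets. Leaving out each library in turn gave 0.61 to 1.07, and leaving out the 2 libraries labelled control whose locus is like the mutants gave 0.81 ± 0.33.

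In mutants the Vgf difference between SD and ZT6 was 0.16 ± 0.406 (edgeR adjusted p = 1), and the libraries overlapped. Within the 2 sets that hold both it was 0.46 and 0.39, and with the sets as a covariate 0.39 ± 0.233. The mutant difference minus the control difference was -0.71 ± 0.517 (edgeR interaction adjusted p = 1), and -0.43 ± 0.292 with the sets as a covariate, so a smaller response in mutants was not shown. Without those 2 libraries it was -0.62 ± 0.475, and without all libraries numbered 43 to 46 -0.34 ± 0.382. With 2 mutant ZT6 libraries, 1 of them numbered 43 to 46, the difference between mutant SD and mutant ZT6 was 0.77 without mutant ZT6 replicate 4 and -0.26 without mutant ZT6 replicate 1. Between control ZT6 and control ZT0 the Vgf difference was 0.37 ± 0.359, and among libraries 5 to 18 alone, the only set with both, it was 0.01.

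**Figure D2:**
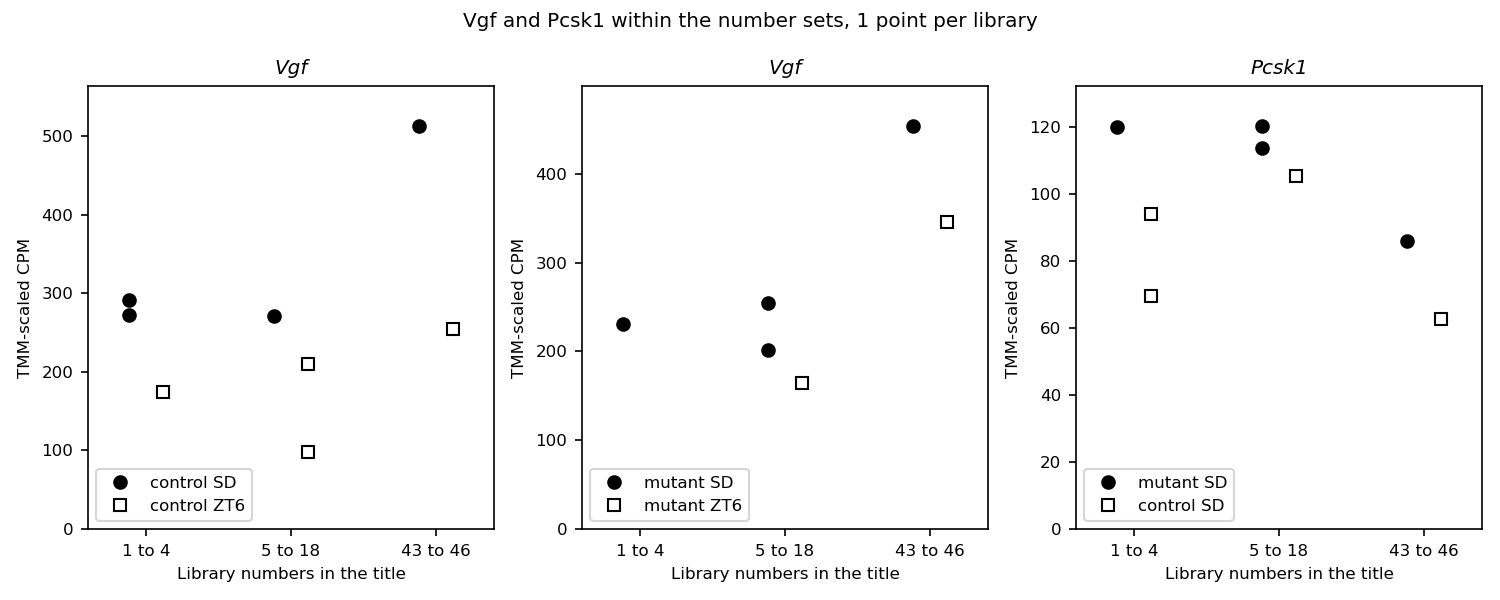
TMM-scaled CPM (vertical axis, from 0) of Vgf in control and in mutant libraries and of Pcsk1 after SD, by library number in the title, 1 point per library with filled circles for the first-named group. Control SD lies above control ZT6 for Vgf in each set, and mutant SD above control SD for Pcsk1 in each set.

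Taken as a group, the 10 genes were described by counts beside the same counts over all genes. For SD in controls 9 of 10 had a log2 difference above 0, with a median of 0.15, where 47.4% of all genes did, with a median of -0.02. For SD in mutants it was 4 of 10 and a median of -0.07, against 48.3% and -0.01. Between genotypes 9 of 10 were above 0 at ZT6 (median 0.21, against 43.5% and -0.06) and 4 of 10 after SD (median -0.03, against 47.4% and -0.02). For control ZT6 over control ZT0 it was 9 of 10 (median 0.27, against 59.7% and 0.09), and for the interaction 2 of 10 (median -0.24, against 52.6% and 0.03). For genotype over both states it was 8 of 10 (median 0.13, against 42.9% and -0.05). The counts moved with the sets as a covariate. Above 0 were then 7 of 10 for SD in controls (median 0.15, over all genes -0.05) and 6 for SD in mutants (0.08 and -0.03). For genotype 7 were at ZT6 (0.20 and -0.03), 5 after SD (0.03 and -0.01) and 7 over both states (0.06 and -0.02). There were 8 for time (0.11 and 0.03) and 4 for the interaction (-0.195 and 0.02). The share of all genes above 0 was not counted in the covariate fit. Without the 2 libraries labelled control whose locus is like the mutants, Cpe and Pam were below 0 for genotype after SD. The others were above 0, with Scg5 and Vgf near it at 0.01 ± 0.246 and 0.05 ± 0.307. The share of all genes above 0 was not counted in that fit. It keeps mutant SD replicate 4, so genotype and library number are mixed in it. The comparisons share groups, control ZT6 in particular, so these counts are not independent of each other.

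The neuronal list moved in the same direction in several of these comparisons. Its 9 genes had a median log2 difference of 0.12 for SD in controls, -0.17 for SD in mutants, 0.29 for genotype at ZT6, -0.12 for genotype after SD and -0.39 for the interaction, with 8, 0, 9, 4 and 1 of 9 above 0. For time in controls it did not follow the 10 genes, with 4 of 9 above 0 and a median of -0.02. The 6 oligodendrocyte markers had 6 of 6 above 0 for SD in controls (median 0.20), 4 of 6 for SD in mutants (0.01), 4 of 6 for genotype at ZT6 (0.13), 1 of 6 for genotype after SD (-0.17), 3 of 6 for time in controls (-0.03) and 0 of 6 for the interaction (-0.34). The part of neuronal or oligodendrocyte content in the values of the 10 genes was not tested.

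**Figure D3:**
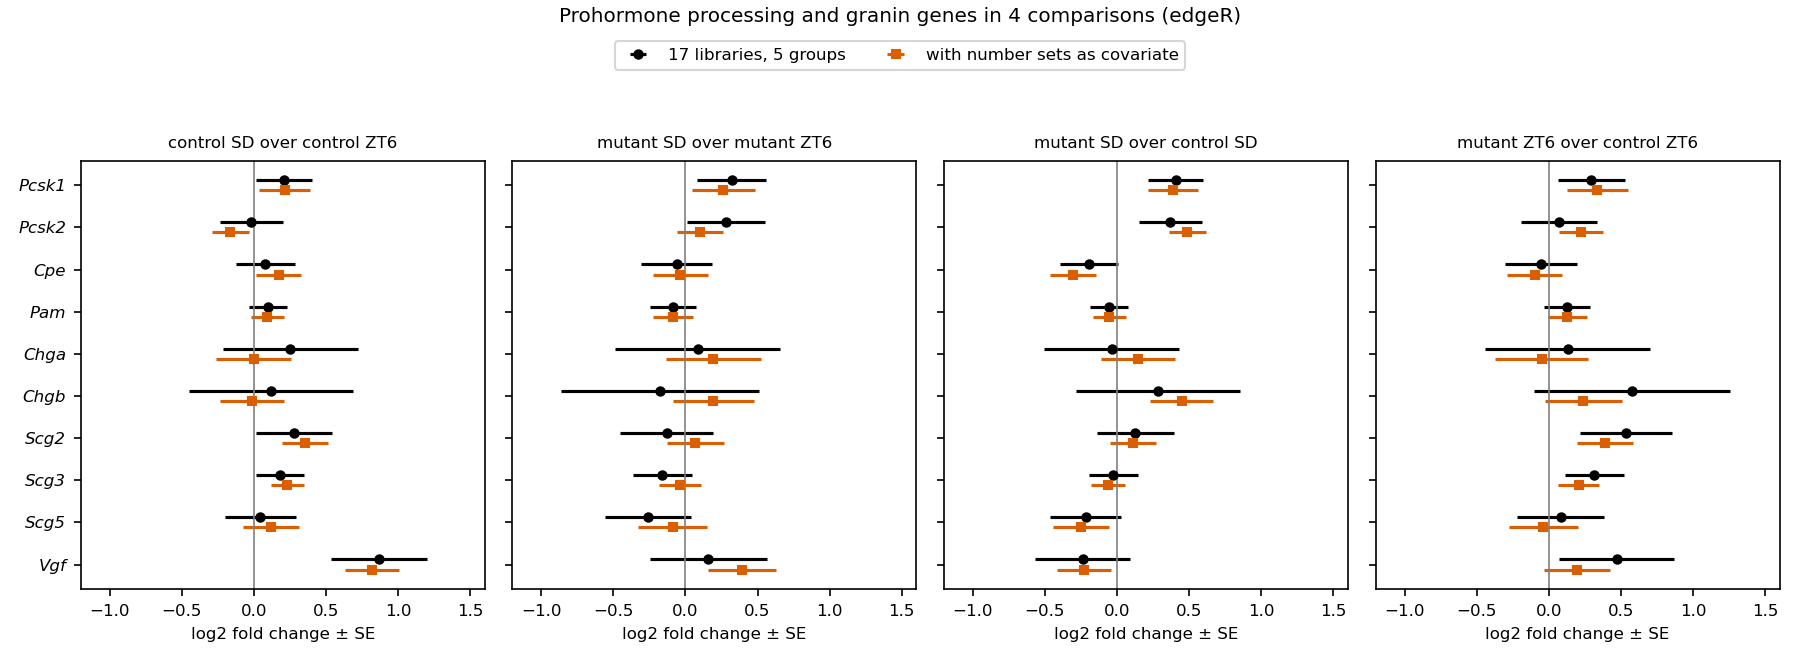
Log2 fold change ± SE (horizontal axis) of the 10 genes in 4 comparisons, from edgeR on 17 libraries (black circles) and with the sets of library numbers as a covariate (orange squares). Vgf for SD in controls, at 0.87 and 0.82, lies furthest from 0, and the error bars of Chga and Chgb are shorter with the covariate.

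The largest differences of these genes lay between libraries numbered 43 to 46 and those numbered 1 to 18, compared with the 5 groups in the same fit, a comparison added after the data were seen. Chgb rose 3.04-fold in libraries 43 to 46, or 1.61 ± 0.22 on the log2 scale (edgeR adjusted p = 0.000237). Vgf rose 1.85-fold (log2 0.89 ± 0.154, edgeR adjusted p = 0.00155), Chga 2.06-fold (log2 1.04 ± 0.289, edgeR adjusted p = 0.027) and Scg2 1.55-fold (log2 0.63 ± 0.144, edgeR adjusted p = 0.00905). Thus 4 of 10 were called higher and 0 lower, where 14.1% of all genes were called, 8.56% higher and 5.49% lower. The 6 others were not called. The granin Scg3 was at 0.30 ± 0.116 and Scg5 at 0.33 ± 0.186, and the enzymes Pcsk1, Pcsk2, Cpe and Pam at -0.27 ± 0.151, -0.16 ± 0.184, -0.18 ± 0.16 and 0.00 ± 0.101. Granins and enzymes were not tested against each other.

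Chgb was 1169 to 1285 CPM in libraries 43 to 46, 378.4 to 952.4 CPM in libraries 1 to 4 and 249.4 to 396.9 CPM in libraries 5 to 18. Its 4 high values carry both genotype labels and both states, and they did not overlap with the rest. Vgf was at 254.6 to 512.2 CPM in libraries 43 to 46 and 97.86 to 290.9 CPM in the others. Among these 4 libraries the SD library of each genotype label was above its ZT6 library.

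Without the 3 libraries with pituitary transcripts 3 of 10 were called, Chgb at 1.73 ± 0.139, Chga at 1.25 ± 0.207 and Vgf at 0.85 ± 0.197 on the log2 scale, where 7.27% of all genes were (edgeR adjusted p = 0.000138, 0.00519 and 0.0241). Scg2 then stood at 0.65 ± 0.195 with an adjusted p of 0.066 from edgeR. Chgb and Vgf were called in all 17 fits that left out 1 library. Over these fits 7.41% to 18% of all genes were called. Without control SD replicate 4 (8.54% of all genes), or without control ZT6 replicate 4 (9.13%), only Chgb and Vgf were called. Without mutant ZT6 replicate 1 or mutant ZT6 replicate 4 Chga was not called. The neuronal list summed to 3094 to 3807 CPM in libraries 43 to 46 and 2584 to 4106 CPM in the rest, and the hypothalamic list to 1092 to 1684 CPM and 833.4 to 1868 CPM. Hemoglobin genes summed to 537 to 1819 CPM in libraries 43 to 46 and 241.9 to 923 CPM in the rest, and endothelial markers to 92.02 to 141.6 CPM and 50.59 to 100.3 CPM. Snhg14 was at 174 to 231.3 CPM in libraries 43 to 46 and 253.4 to 2040 CPM in the rest, with no overlap. The part of these in the differences was not tested.

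**Figure D4:**
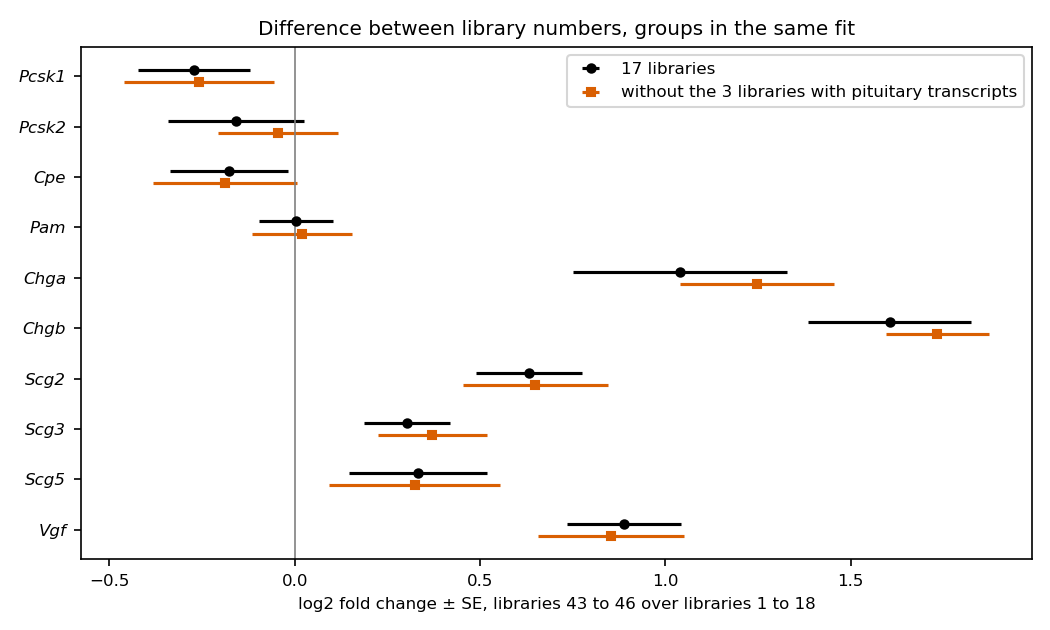
Log2 fold change ± SE (horizontal axis) of the 10 genes between libraries numbered 43 to 46 and libraries numbered 1 to 18, in 17 libraries (black circles) and without the 3 with pituitary transcripts (orange squares). Chgb is at 1.61 and 1.73, and Chga, Scg2 and Vgf lie above 0 in both fits.

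Other genes of the pathway gave no calls in the 7 comparisons either, for 0 of 17 other processing enzymes and inhibitors and 0 of 13 dense core granule proteins. Their median log2 differences were -0.03 and 0.07 for SD in controls, and -0.07 and -0.08 for genotype after SD. Pcsk1n, which encodes the PC1 inhibitor proSAAS, had 578.7, 346.4, 516.6 and 1247 CPM in mutant SD and 887.6, 797.9, 526.6 and 1723 CPM in control SD, with overlap. The highest of these, 1723 CPM, is control SD replicate 4, 1 of the 2 libraries labelled control whose locus is like the mutants. The log2 difference of Pcsk1n was -0.55 ± 0.451 (mutant over control, edgeR adjusted p = 0.999), and -0.54, -0.32 and -0.47 within the 3 sets. Of all genes, 20.6% were below 0 in all 3 sets. Between libraries 43 to 46 and 1 to 18 Pcsk1n was the only one of the 17 called, at 1.08 ± 0.259 (edgeR adjusted p = 0.0127). It was not called without the libraries with pituitary transcripts, at 0.96 ± 0.321 (edgeR adjusted p = 0.091). Of the 13 granule proteins Ica1, at 0.44 ± 0.0902, was called higher in libraries 43 to 46 and the cytochrome Cyb561, at -0.58 ± 0.131, lower (edgeR adjusted p = 0.00469 and 0.00906). Neither was called without the libraries with pituitary transcripts.

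Nhlh2, a helix-loop-helix factor known in mice to act on the Pcsk1 promoter, was near the low end of what is measurable here, at 1.195 ± 0.6093 CPM in mutant SD and 0.6391 ± 0.4102 CPM in control SD (standard deviation, n = 4 each). The log2 difference was 0.88 ± 0.649 (edgeR adjusted p = 0.999). Within the 3 sets it was -0.12, 0.68 and 2.28, so the sign was not the same in all. The last value rests on control SD replicate 4, the lowest of the 17 libraries at 0.15 CPM, whose locus is like the mutants. Furin, a convertase of other precursor proteins, was at 23.01 ± 8.96 CPM in mutant SD and 21.87 ± 4.569 CPM in control SD, a log2 difference of 0.07 ± 0.256. The 24 peptide precursors, the substrates of the pathway, had 0 called in the 7 comparisons, with a median log2 difference of 0.07 for SD in controls, -0.21 for SD in mutants, -0.09 for genotype at ZT6 and -0.26 for genotype after SD. The 12 immediate early genes such as Fos and Arc, which neuronal activity induces, also had 0 called, and 5 of 12 were above 0 for SD in controls, with a median of -0.04.

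The genes most like Pcsk1 and Vgf across libraries were named by their Pearson correlation of log2 CPM over the 17 libraries, among 16748 genes with a mean of at least 1 CPM. The libraries share groups, depth and set differences, so the values describe likeness only. For Pcsk1 they were the trans-Golgi protein gene Tgoln1 (r = 0.939, Spearman's rho 0.929) and Sel1l of endoplasmic reticulum degradation (0.918 and 0.922), then Fndc3a, Ascc3 and Emb, at r = 0.89, 0.886 and 0.884. For Vgf they were the heat shock protein 90 partners Fkbp4 (r = 0.958, rho 0.975) and Ahsa1 (0.955 and 0.956), then Ilrun at r = 0.948, and the glucose transporter gene Slc2a1 and Dlg3, both at r = 0.933. None of the 5 genes in either list was among the 10.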

How the data were processed

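The deposited table holds expected counts, which the authors estimated per gene with kallisto 0.44.0 after trimming with Trimmomatic 0.38 and checking with FastQC, summed with tximport and, per the labels, on an Ensembl index; they are whole numbers and not normalised. Libraries were made with a polyA kit and sequenced on a NovaSeq, per the labels' protocols. Of 41461 lines, 5 that repeat an identifier were dropped. Replicates of a group differed by more than counting noise (lowest chi-square per degree of freedom 36.55). p-values measure the spread between libraries. edgeR 4.0.16 in R 4.3.3 was run on the 17 libraries in 5 groups, with TMM factors, filterByExpr (minimum count 10, minimum total 15), quasi-likelihood F tests and Benjamini-Hochberg adjustment over 21346 genes, two-sided. The SE was derived from the fold change and the F statistic (log2 change divided by root F). Correlations and within-set differences use log2 CPM with a prior count of 2. The script was tested on simulated data. Alternatives were RLE factors, no filter, DESeq2 1.42.0, 3 number sets as covariate, all 22 libraries, leaving out 3 libraries with pituitary transcripts, and leaving out each library. Leaving out the 2 controls or all 4 libraries numbered 43 to 46 was added after the data were seen. The genes and lists were chosen with earlier results of these data known. Every gene of the 10 is described; Pcsk1n, Furin and Nhlh2 were named by rule, as were called members of the other lists and the 5 genes most like Pcsk1 and Vgf.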

Additional observations from a re-analysis of the deposited data

Results flagged for a closer look

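In groups of 4 libraries, 30 of which were examined, 5 held a library whose gap to its nearest neighbour was a larger share of the group's range than Dixon's critical value, and chance gives about 1 in 20 groups. In mutant SD, Pcsk2 was at 414.5 CPM in replicate 1, the library with most pituitary transcripts, and at 225.5 to 232.8 CPM in the others. The other 4 cases were in control SD replicate 4 and control ZT6 replicate 4, both numbered 43 to 46. Chgb was at 1261 CPM in control SD replicate 4, against 360.6 to 404 CPM in the other control SD libraries. It was at 1169 CPM in control ZT6 replicate 4, against 272.8 to 396.9 CPM in the others of that group. Scg3 was at 112.8 CPM in control ZT6 replicate 4, against 75.42 to 80.19 CPM, and Vgf at 512.2 CPM in control SD replicate 4, against 270.5 to 290.9 CPM.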

How the results depend on the processing

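None of the 10 genes was called in the 7 comparisons under any alternative, where the lowest adjusted p was 0.366. The count of all genes called, 0 in each, was for SD in controls 18 with DESeq2, 1 without the filter, 2 without the libraries with pituitary transcripts, 4 with the covariate and without those libraries, 1 without libraries numbered 43 to 46, and 0 to 1 leaving out each library. For SD in mutants it was 16 with DESeq2, 173 with all 22 libraries and 0 to 3. For genotype at ZT6 it was 15 with DESeq2, 1 without the libraries with pituitary transcripts and 0 to 2. For genotype after SD it was 1 with DESeq2, 3 with the covariate and 1 with both changes. For genotype over both states it was 5 with DESeq2 and 0 to 2, for time 23 and 0 to 1, and for the interaction 8, with 1 without the libraries with pituitary transcripts and 0 to 2. Between libraries 43 to 46 and 1 to 18, 3000 genes were called, 1524 without the libraries with pituitary transcripts and 1581 to 3802 leaving out each library, where 2 to 4 of the 10 were called. A mutant ZT6 library left alone was assumed to vary like the other groups. The cause of these changes was not tested. Of 630 values of the 10 genes under the alternatives, 97 changed sign, 31 of them with all 22 libraries, and of 1190 leaving out a library 74 did, all without a call. No paired analysis was possible because the replicate numbers only name libraries in the order of deposit.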

Other observations

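Pcsk7, a convertase of the constitutive secretory route, was singled out after its values were seen. It had at most 1 count in 14 of the 17 libraries, and 99, 61 and 63 counts in mutant ZT6 replicate 4, control ZT6 replicate 2 and control ZT6 replicate 4. It was not called in any comparison, at a log2 difference of -7.18 ± 2.31 for SD in controls (edgeR adjusted p = 0.699), a fitted value that depends on the near-empty group.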
